A study of Mus musculus with 9 samples.

Results

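The mitochondrial chromosome of the mouse carries 37 of the 55488 genes in the deposited tables, taken here as every gene whose symbol begins with mt-. They comprise 13 protein genes, 2 rRNA genes and 22 tRNA genes. The symbol alone chose them, and no measured value did. All 37 lie on chrM of the mouse build GRCm38 (mm10), 28 on the plus strand and 9 on the minus strand, with no introns. All 37 reached 1 TPM, the deposited unit (transcripts per 1000000, a share of transcripts scaled by gene length), in at least 3 of the 9 libraries, and 34 reached it in all 9.

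The libraries came from cells sorted from fetal livers of C57BL/6 mice at embryonic day 14.5, with the lysate of 100 cells in each and 3 libraries in each of 3 groups. Evi1 HSC cells were GFP+, CD150+, CD48-, c-Kit+, Sca-1+ and Lin-, a gate of haematopoietic stem cells (HSCs), from embryos of the genotype Tie2-Cre::ROSA-Evi1. The Tie2 promoter drives the Cre recombinase in endothelium and in blood cells, and the Evi1 protein, made from the Mecom locus, is a transcription factor with zinc fingers. WT HSC cells were sorted by the same surface gate without GFP, and WT KL cells, a gate of committed progenitors, were c-Kit+, Sca-1- and Lin-. Both WT groups came from embryos of the genotype ROSA-Evi1, so all 3 groups carried the ROSA-Evi1 allele and the WT groups lacked the Cre. No label says that replicates came from separate embryos or litters, so the p-values cover no more than the spread among the libraries at hand, which may be technical. The files give no read depth, so no counting error could be given.

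Mitochondria keep a small circular genome whose strands are copied into long RNAs that hold many genes each, and the tRNAs that stand between most of the other genes are cut out to free the rRNAs and mRNAs. The 13 proteins are core subunits of the respiratory chain and of ATP synthase, and the rRNAs and tRNAs serve the ribosome that makes them inside the organelle. All other mitochondrial proteins, including those that copy and process this RNA, come from nuclear genes. Adult haematopoietic stem cells are known for relying on glycolysis and committed progenitors for greater use of respiration.

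In 2 libraries the cell type markers went against the labels. The 6 markers of the stem cell gate (Mecom, Hlf, Ly6a, Slamf1, Procr and Esam) summed to 499.9 to 575 TPM in Evi1 HSC libraries and, for WT HSC replicates 1 and 2, to 419.9 and 434 TPM, against 1.96 and 3.08 TPM in WT KL replicates 2 and 3. The library labelled WT HSC replicate 3 had 1.12 TPM, with Ly6a and Procr at 0, while that labelled WT KL replicate 1 showed 403 TPM, with none at 0. The 6 myeloid markers (Mpo, Elane, Ctsg, Prtn3, Ms4a3 and Cd48) summed to 944 and 41.5 TPM in the WT HSC one and the WT KL one of these, against 485 and 1319 TPM in WT KL replicates 2 and 3 and 28.2 to 41.6 TPM in the 5 other libraries. Both libraries keep their labels here, and each result is given over the 9 libraries as labelled and over the 7 without them. Where a group has 3 values, they stand in the order of replicates 1, 2 and 3, so the third of WT HSC and the first of WT KL belong to these 2 libraries. Mecom itself stood at 209, 176 and 209.7 TPM in Evi1 HSC libraries and, for WT HSC replicates 1 and 2, at 161 and 114 TPM. Markers of hepatocytes summed to 0.239 to 22.03 TPM over 5 genes, highest in the library labelled WT KL replicate 1, and those of macrophages to 0.325 to 2.62 TPM over 5 genes. The 6 erythroid markers (Gata1, Klf1, Epor, Ermap, Hba-a1 and Hbb-bt) summed to 652 to 3473 TPM, again highest in the library labelled WT KL replicate 1. Of these, Gata1 did not follow the sum, and the others are not given singly here. Gata1 gave 4.20, 3.79 and 2.79 TPM in Evi1 HSC, 17.3, 18.2 and 100.1 TPM in WT HSC and 8.92, 107 and 118 TPM in WT KL. The sum alone therefore does not show which libraries held more erythroid cells.

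TPM per gene does not separate a tRNA cut free from the longer RNA that holds it. The tRNA genes gave the widest range of changes, and 6 of their sequences are shown. They are mt-Tl1 (leucine), mt-Tf (phenylalanine), mt-Tt (threonine), mt-Ts1 (serine), mt-Tc (cysteine) and mt-Tl2 (the other leucine tRNA). mt-Tl1, mt-Tf and mt-Tt were among the tRNA genes with the lowest adjusted p between WT HSC and WT KL. mt-Tm (methionine) had a lower one there than mt-Tf, but the rule below found no anticodon in its sequence, which is not shown. mt-Ts1 had the highest TPM of the tRNA genes. mt-Tc and mt-Tl2 passed the test between WT HSC and WT KL and in no other comparison. Each of the 6 is written 5′ to 3′ from the GENCODE M21 transcripts of GRCm38, with the anticodon in capitals. The anticodon was found as the middle of a loop of 7 bases closed by a stem of 5 bases with at least 4 pairs. A T had to stand just before it, and its position within the gene was bounded.
mt-Tl1 (chrM:2676-2750, plus strand): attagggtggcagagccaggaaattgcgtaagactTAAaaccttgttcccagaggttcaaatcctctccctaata
mt-Tf (chrM:1-68, plus strand): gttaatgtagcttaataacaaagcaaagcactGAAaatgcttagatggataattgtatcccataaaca
mt-Tt (chrM:15289-15355, plus strand): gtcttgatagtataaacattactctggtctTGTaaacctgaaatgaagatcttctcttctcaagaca
mt-Ts1 (chrM:6870-6938, minus strand): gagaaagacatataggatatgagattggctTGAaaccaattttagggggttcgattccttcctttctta
mt-Tc (chrM:5192-5257, minus strand): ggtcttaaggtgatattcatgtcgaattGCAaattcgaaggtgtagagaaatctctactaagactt
mt-Tl2 (chrM:11671-11741, plus strand): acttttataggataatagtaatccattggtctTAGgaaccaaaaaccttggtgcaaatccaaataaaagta

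The mitochondrially encoded genes together took up 11.6 to 14.6% of the listed TPM in Evi1 HSC libraries, 13.6 and 14.1% in WT HSC replicates 1 and 2 and 17.9 and 18.1% in WT KL replicates 2 and 3. The library labelled WT HSC replicate 3 had 17.4% and that labelled WT KL replicate 1 had 13.96%, so each sat with the other gate. Over the 7 libraries the share averaged 13.4 ± 1.596% in Evi1 HSC (SD, n = 3), 13.8 ± 0.321% in WT HSC (SD, n = 2) and 17.96 ± 0.139% in WT KL (SD, n = 2). The mean of WT HSC minus that of WT KL was -4.14 percentage points over these 7 libraries, and the groups did not overlap. Evi1 HSC and WT HSC overlapped, with Evi1 HSC replicate 3 the lowest library of all. As labelled, the 9 libraries averaged 13.4 ± 1.596% in Evi1 HSC, 15.03 ± 2.101% in WT HSC and 16.6 ± 2.32% in WT KL (SD, n = 3 each), and the 3 ranges overlapped. No test was made on these sums. The listed genes cover 56.9 to 63.8% of the TPM scale, and of that whole scale the mitochondrial share was 6.78 to 8.53% in Evi1 HSC, 7.74 and 8.399% in WT HSC replicates 1 and 2 and 10.5 and 11.4% in WT KL replicates 2 and 3. In bulk samples such as these, fewer cells of a type and less RNA per cell cannot be told apart.

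**Figure D1:**
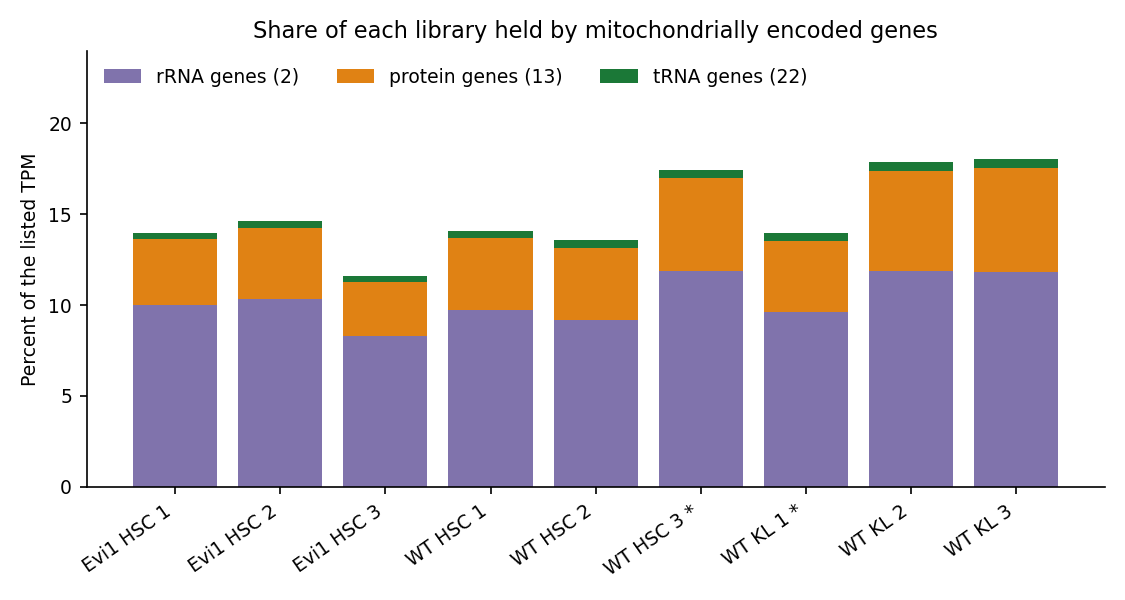
Percent of the listed TPM (bars start at 0) held by the 2 rRNA genes, the 13 protein genes and the 22 tRNA genes in each of the 9 libraries, where * marks the 2 libraries whose markers went against their labels. WT KL replicates 2 and 3 and the library labelled WT HSC replicate 3 reach 17.4 to 18.1%, and the other 6 stay between 11.6 and 14.6%.

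The rRNA genes made up most of that share. They held 8.31 to 10.3% of the listed TPM in Evi1 HSC, 9.202 and 9.71% in WT HSC replicates 1 and 2 and 11.8 and 11.9% in WT KL replicates 2 and 3. The protein genes held 2.96 to 3.94% in Evi1 HSC, 3.96 and 3.99% in WT HSC replicates 1 and 2 and 5.53 and 5.72% in WT KL replicates 2 and 3. The tRNA genes held 0.338 to 0.371%, 0.348 and 0.435% and 0.484 and 0.537% in the same 3 sets of libraries. In all 3 classes both WT KL libraries lay above all 5 stem cell libraries. The library labelled WT HSC replicate 3 had 11.9% in rRNA, 5.14% in protein and 0.436% in tRNA genes, while that labelled WT KL replicate 1 had 9.597%, 3.95% and 0.405%.

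The balance between classes also differed. Within the mitochondrial TPM, rRNA held 70.6 to 71.6% in Evi1 HSC, 67.7 and 69.1% in WT HSC replicates 1 and 2 and 65.4 and 66.3% in WT KL replicates 2 and 3. The ratio of summed rRNA to summed protein gene TPM was 2.72, 2.62 and 2.81 in Evi1 HSC replicates 1 to 3, 2.43, 2.32 and 2.31 in WT HSC replicates 1 to 3 and 2.43, 2.14 and 2.06 in WT KL replicates 1 to 3. The Evi1 HSC libraries were thus above the WT HSC libraries in this ratio whether or not the library labelled WT HSC replicate 3 was counted, and above all WT KL libraries. This is a score over the genes, and it was not tested.

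Other measures of the whole library moved with these shares. WT KL replicates 2 and 3 and the library labelled WT HSC replicate 3 had 15422 to 15819 genes at 1 TPM or more, against 18258 to 18806 in the other 6. Malat1, a nuclear RNA, stood at 192 to 217 TPM in those 3 libraries, against 607 to 827 TPM in the other 6. The part of these measures in the mitochondrial shares was not tested.

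Of the rRNA genes, mt-Rnr1 (ENSMUSG00000064337, chrM:70-1024, plus strand) encodes the RNA of the small mitochondrial ribosomal subunit. mt-Rnr1 stood at 34279.9, 33288 and 26016 TPM in Evi1 HSC, 34115, 29286 and 44939 TPM in WT HSC and 33664, 46040.4 and 42035 TPM in WT KL. The values of both WT KL replicates 2 and 3 lay above those of all 5 stem cell libraries of the 7. In limma's moderated test over the 7 libraries, with Benjamini-Hochberg adjustment over the 19461 genes that 3 or more libraries held at 1 TPM or above, the log2 fold change of mt-Rnr1 was -0.48 (SE 0.14, adjusted p = 0.0394) in WT HSC over WT KL and -0.51 (SE 0.13, adjusted p = 0.0191) in Evi1 HSC over WT KL. All fold changes here are differences of mean log2(TPM + 1), which understate the change of genes near or below 1 TPM. The RNA of the large subunit comes from mt-Rnr2 (ENSMUSG00000064339, chrM:1094-2675, plus strand). mt-Rnr2 gave 26591, 25671 and 22567 TPM in Evi1 HSC, 23937, 23057 and 26998 TPM in WT HSC and 24085, 29512 and 26427 TPM in WT KL. Evi1 HSC replicate 1, at the upper end of its group, exceeded WT KL replicate 3, so those groups overlapped. The log2 fold change of mt-Rnr2 over 7 libraries was -0.25 (SE 0.09, adjusted p = 0.0789) in WT HSC over WT KL and -0.17 (SE 0.09, adjusted p = 0.15996) in Evi1 HSC over WT KL, neither past the threshold of 0.05.

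**Figure D2:**
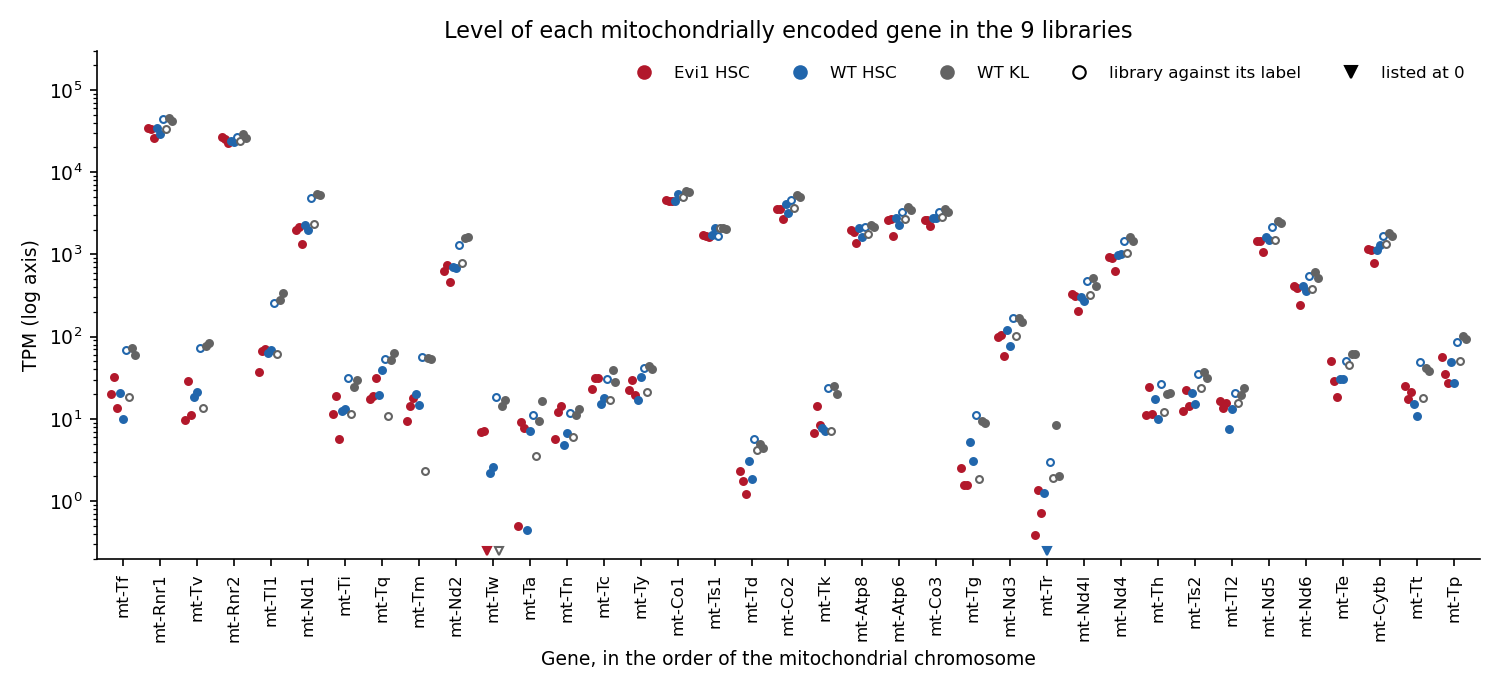
TPM on a log axis of each of the 37 genes, in their order on the mitochondrial chromosome, with 1 point per library, Evi1 HSC at the left, then WT HSC, then WT KL, and open points for the 2 libraries against their labels. In 30 of the 37 genes the 3 highest values are those of WT KL replicates 2 and 3 and the library labelled WT HSC replicate 3.

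Complex I, the NADH dehydrogenase at the entry of the respiratory chain, takes 7 subunits from this genome, and 2 of them showed the clearest differences among protein genes. mt-Nd1 (ENSMUSG00000064341) lies at chrM:2751-3707. mt-Nd1 measured 1957, 2147 and 1333 TPM in Evi1 HSC, 2303, 2011 and 4827 TPM in WT HSC and 2320.1, 5460.2 and 5305 TPM in WT KL. mt-Nd2 (ENSMUSG00000064345) lies at chrM:3914-4951. mt-Nd2 had 638, 749 and 467 TPM in Evi1 HSC, 712, 689 and 1311 TPM in WT HSC and 778, 1608 and 1624 TPM in WT KL. In both genes WT KL replicates 2 and 3 and the library labelled WT HSC replicate 3 formed a high set that the other 6 libraries did not reach. Over 7 libraries the log2 fold change of mt-Nd1 was -1.32 in WT HSC over WT KL (SE 0.21, adjusted p = 0.00385), a level 2.5003 times lower in WT HSC, and -1.60 in Evi1 HSC over WT KL (SE 0.19, adjusted p = 0.000864). That of mt-Nd2 was -1.21 (SE 0.20, adjusted p = 0.00431) and -1.41 (SE 0.18, adjusted p = 0.00112) in the same 2 comparisons.

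The other complex I genes lie farther along the chromosome. mt-Nd4 (chrM:10167-11544) and mt-Nd5 (chrM:11742-13565) encode subunits of the proton-pumping arm. mt-Nd4 had 931, 911 and 639 TPM in Evi1 HSC, 973, 1021 and 1456 TPM in WT HSC and 1030.2, 1615 and 1466 TPM in WT KL. mt-Nd5 stood at 1448, 1456 and 1069.9 TPM in Evi1 HSC, 1624, 1496 and 2175 TPM in WT HSC and 1481, 2540.3 and 2434 TPM in WT KL. Both genes were lower in every WT HSC and Evi1 HSC library of the 7 than in WT KL replicates 2 and 3, and both passed the test in each comparison with WT KL. In WT HSC over WT KL, the log2 fold change was -0.63 for mt-Nd4 (SE 0.18, adjusted p = 0.0352) and -0.67 for mt-Nd5 (SE 0.16, adjusted p = 0.0154). The 3 remaining subunit genes are mt-Nd3 (chrM:9459-9806), mt-Nd4l (chrM:9877-10173) and mt-Nd6 (chrM:13552-14070), the last the sole protein gene on the minus strand. mt-Nd3 gave 99.9, 106 and 58.8 TPM in Evi1 HSC, 121, 77.5 and 169 TPM in WT HSC and 102, 169 and 152 TPM in WT KL. mt-Nd4l measured 328, 316 and 208 TPM in Evi1 HSC, 308, 273 and 473 TPM in WT HSC and 323, 523 and 413 TPM in WT KL. mt-Nd6 had 413, 391 and 243 TPM in Evi1 HSC, 416, 360.2 and 544 TPM in WT HSC and 381, 610.4 and 519.6 TPM in WT KL. Each was lower in all 5 stem cell libraries of the 7 than in WT KL replicates 2 and 3. Their log2 fold changes in Evi1 HSC over WT KL were -0.90, -0.74 and -0.73, with adjusted p of 0.0418, 0.0287 and 0.0394. In WT HSC over WT KL they were -0.72, -0.68 and -0.54, with adjusted p of 0.1201, 0.0607 and 0.138, none past the threshold. mt-Nd5 and mt-Nd6 share 14 bases on opposite strands, and the sources used here do not say whether counting used strand, so reads from that stretch cannot be assigned to one of them.

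Complex IV, the cytochrome c oxidase at the end of the chain, takes its 3 catalytic subunits from mt-Co1 (chrM:5328-6872), mt-Co2 (chrM:7013-7696) and mt-Co3 (chrM:8607-9390). mt-Co1 had the highest TPM of the protein genes in all 9 libraries. mt-Co1 had 4567, 4513 and 4442 TPM in Evi1 HSC, 4474, 5379 and 5188 TPM in WT HSC and 5062, 5929 and 5716 TPM in WT KL. mt-Co2 stood at 3561, 3579.9 and 2723 TPM in Evi1 HSC, 4146, 3238 and 4634 TPM in WT HSC and 3706, 5322 and 4956 TPM in WT KL. mt-Co3 gave 2661, 2643 and 2238 TPM in Evi1 HSC, 2784, 2744 and 3261 TPM in WT HSC and 2835, 3525 and 3272 TPM in WT KL. These genes differed less between gates than mt-Nd1 and mt-Nd2. In Evi1 HSC over WT KL the log2 fold change was -0.37 for mt-Co1 (SE 0.09, adjusted p = 0.0124), -0.65 for mt-Co2 (SE 0.15, adjusted p = 0.0129) and -0.44 for mt-Co3 (SE 0.09, adjusted p = 0.00897). For WT HSC over WT KL it was -0.25, -0.49 and -0.30, with adjusted p of 0.0796, 0.0598 and 0.0599, and none of the 3 passed.

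The ratio of mt-Nd1 to mt-Co1 within a library does not depend on how the library was scaled. It may depend on how reads shared by mt-Co1 and its nuclear copy, described below, were counted. The ratio was 0.429, 0.476 and 0.30004 in Evi1 HSC replicates 1 to 3, 0.515, 0.374 and 0.9305 in WT HSC replicates 1 to 3 and 0.458, 0.921 and 0.928 in WT KL replicates 1 to 3. WT KL replicates 2 and 3 and the library labelled WT HSC replicate 3 had nearly equal ratios, and the other 6 libraries had lower ones. The complex I genes together held 5.92 to 7.27% of the mitochondrial TPM in Evi1 HSC, 7.66 and 7.69% in WT HSC replicates 1 and 2 and 10.998 and 11.4% in WT KL replicates 2 and 3. The complex IV genes held 12.6 to 13.9%, 13.6 and 14.7% and 12.97 and 13.3% in these sets, where both WT HSC values lay above both WT KL values and the Evi1 HSC range overlapped each. A ratio within a library shows that the genes changed unequally, not that either one stayed the same.

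**Figure D3:**
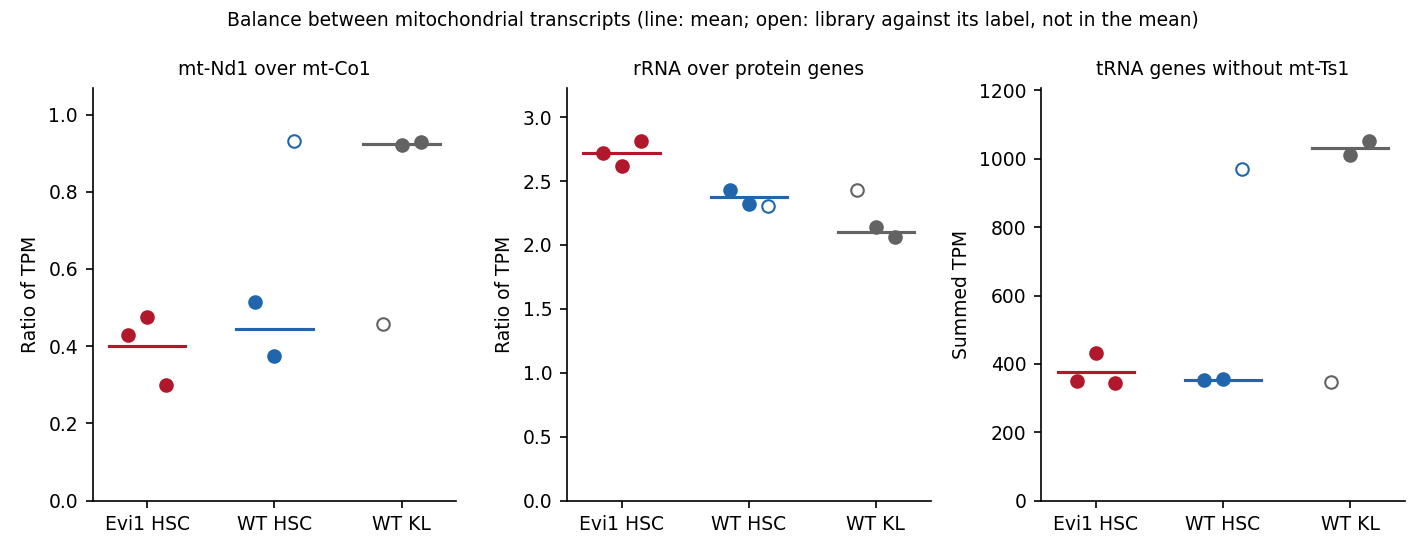
Per library, the ratio of mt-Nd1 to mt-Co1 TPM, the ratio of summed rRNA to summed protein gene TPM, and the summed TPM of the 21 tRNA genes other than mt-Ts1, in Evi1 HSC, WT HSC and WT KL, each axis starting at 0. Lines are means without the 2 libraries against their labels (open points), and those 2 sit with the other gate in the first and the last panel.

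The remaining protein genes belong to complex III and to ATP synthase. mt-Cytb (chrM:14145-15288) encodes cytochrome b, the complex III subunit. mt-Cytb measured 1168, 1138 and 789.7 TPM in Evi1 HSC, 1139, 1295 and 1665 TPM in WT HSC and 1339, 1842 and 1673 TPM in WT KL. mt-Atp6 (chrM:7927-8607) and mt-Atp8 (chrM:7766-7969) encode parts of the proton channel of ATP synthase and share 43 bases on the same strand. mt-Atp6 had 2606, 2673 and 1682 TPM in Evi1 HSC, 2749, 2298 and 3324 TPM in WT HSC and 2671, 3797 and 3469 TPM in WT KL. mt-Atp8 had 2002, 1870.4 and 1394 TPM in Evi1 HSC, 2112, 1654 and 2139 TPM in WT HSC and 1768, 2314 and 2167 TPM in WT KL. In mt-Cytb and mt-Atp6, WT KL replicates 2 and 3 lay clear of the 5 stem cell libraries of the 7, while in mt-Atp8 WT HSC replicate 1 came close to WT KL replicate 3. The log2 fold change in Evi1 HSC over WT KL was -0.79 for mt-Cytb (SE 0.18, adjusted p = 0.0108) and -0.68 for mt-Atp6 (SE 0.21, adjusted p = 0.0339). For mt-Atp8 it was -0.37 (SE 0.17, adjusted p = 0.126), the one protein gene that did not pass in that comparison. In WT HSC over WT KL the values were -0.53 for mt-Cytb, -0.53 for mt-Atp6 and -0.26 for mt-Atp8, with adjusted p of 0.0697, 0.108 and 0.3196.

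The tRNA genes are 59 to 75 bases long, and 21 of the 22 stayed under 400 TPM in every library. The exception was mt-Ts1, whose sequence stands above. mt-Ts1 stood at 1717, 1685 and 1633 TPM in Evi1 HSC, 1729, 2120.0 and 1671 TPM in WT HSC and 2087, 2075 and 2065 TPM in WT KL. It held 63.3 to 85.7% of the summed tRNA TPM of a library. It shares 3 bases with the end of mt-Co1 on the opposite strand, and reads from the 2 cannot be told apart there. mt-Ts1 may also count RNA of the opposite strand along its whole length, since whether counting used strand is not known. Its ratio to mt-Co1 was 0.368 to 0.376 in Evi1 HSC, 0.386 and 0.394 in WT HSC replicates 1 and 2 and 0.35001 and 0.361 in WT KL replicates 2 and 3. The log2 fold change of mt-Ts1 in Evi1 HSC over WT KL was -0.30 (SE 0.10, adjusted p = 0.0382), and in WT HSC over WT KL -0.11 (adjusted p = 0.434). Without mt-Ts1, the tRNA genes summed to 349, 431 and 345 TPM in Evi1 HSC replicates 1 to 3, 352, 356 and 970.0 TPM in WT HSC replicates 1 to 3 and 348, 1012 and 1051 TPM in WT KL replicates 1 to 3. The values of WT KL replicates 2 and 3 and of the library labelled WT HSC replicate 3 were far above those of the other 6, with no overlap.

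The leucine tRNA gene mt-Tl1, printed first above, lies between mt-Rnr2 and mt-Nd1 and had the lowest adjusted p of all 37 genes in both comparisons with WT KL. mt-Tl1 gave 37.6, 66.3 and 71.8 TPM in Evi1 HSC, 62.7, 69.6 and 261 TPM in WT HSC and 62.5, 282 and 339.5 TPM in WT KL. Its log2 fold change over 7 libraries was -2.21 in WT HSC over WT KL (SE 0.30, adjusted p = 0.00193) and -2.44 in Evi1 HSC over WT KL (SE 0.27, adjusted p = 0.000597). The tRNA genes on either side of mt-Rnr1 are mt-Tf (phenylalanine, the sequence above) and mt-Tv (valine, chrM:1025-1093). mt-Tf measured 20.1, 31.97 and 13.5 TPM in Evi1 HSC, 20.5, 9.87 and 68.6 TPM in WT HSC and 18.3, 73.2 and 60.2 TPM in WT KL. mt-Tv had 9.62, 28.6 and 11.1 TPM in Evi1 HSC, 18.7, 21.5 and 72.7 TPM in WT HSC and 13.5, 76.1 and 83.2 TPM in WT KL. Both were lower in all 5 stem cell libraries of the 7 than in WT KL replicates 2 and 3. Their log2 fold changes in WT HSC over WT KL were -2.14 (SE 0.44, adjusted p = 0.00973) for mt-Tf and -1.93 (SE 0.45, adjusted p = 0.01603) for mt-Tv. The same genes had, in Evi1 HSC over WT KL, -1.64 (adjusted p = 0.01504) and -2.37 (adjusted p = 0.00390).

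Between mt-Nd1 and mt-Nd2 stand mt-Ti (isoleucine, chrM:3706-3774), mt-Tq (glutamine, chrM:3772-3842, minus strand) and mt-Tm (methionine, chrM:3845-3913). mt-Tm had 9.34, 14.2 and 17.9 TPM in Evi1 HSC, 20.1, 14.8 and 56.7 TPM in WT HSC and 2.31, 55.1 and 53.6 TPM in WT KL. The library labelled WT KL replicate 1 was the lowest of the 9 in mt-Tm. mt-Ti stood at 11.5, 19.2 and 5.71 TPM in Evi1 HSC, 12.3, 13.4 and 31.4 TPM in WT HSC and 11.5, 24.7 and 29.9 TPM in WT KL. mt-Tq gave 17.5, 19.1 and 31.1 TPM in Evi1 HSC, 19.8, 39.6 and 54.1 TPM in WT HSC and 10.8, 52.2 and 63.1 TPM in WT KL. mt-Tm passed the test in WT HSC over WT KL, at -1.60 (SE 0.29, adjusted p = 0.00621), and in Evi1 HSC over WT KL, at -1.94 (SE 0.27, adjusted p = 0.00143). mt-Ti and mt-Tq, which share 3 bases on opposite strands, passed in Evi1 HSC over WT KL, at -1.24 (adjusted p = 0.0475) and -1.35 (adjusted p = 0.0169). For WT HSC over WT KL they stood at -1.03 (adjusted p = 0.121) and -1.01 (adjusted p = 0.0737).

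At the other end of the chromosome, mt-Tt (threonine, printed above) and mt-Tp (proline, chrM:15356-15422, minus strand) follow mt-Cytb. mt-Tt measured 25.2, 17.5 and 21.3 TPM in Evi1 HSC, 15.1, 10.8 and 49.8 TPM in WT HSC and 17.8, 41.5 and 38.8 TPM in WT KL. mt-Tp had 56.2, 35.4 and 27.6 TPM in Evi1 HSC, 49.4, 27.7 and 86.6 TPM in WT HSC and 50.5, 101 and 94.2 TPM in WT KL. Both were lower in all 5 stem cell libraries of the 7 than in WT KL replicates 2 and 3. mt-Tt fell by 1.58 on the log2 scale in WT HSC against WT KL (SE 0.22, adjusted p = 0.00235) and by 0.90 in Evi1 HSC against WT KL (SE 0.20, adjusted p = 0.0113). mt-Tp fell by 1.37 (SE 0.37, adjusted p = 0.0257) and by 1.33 (SE 0.34, adjusted p = 0.0167) in the same comparisons.

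Of the tRNA genes in the middle of the chromosome, mt-Tk (lysine, chrM:7700-7764), mt-Tg (glycine, chrM:9391-9458) and mt-Ts2 (serine, chrM:11613-11671) also passed in both comparisons with WT KL. mt-Tk had 6.696, 14.5 and 8.42 TPM in Evi1 HSC, 7.71, 7.18 and 23.8 TPM in WT HSC and 7.19, 24.9 and 20.1 TPM in WT KL. mt-Tg stood at 2.56, 1.58 and 1.57 TPM in Evi1 HSC, 5.22, 3.06 and 11.1 TPM in WT HSC and 1.86, 9.503 and 8.89 TPM in WT KL. mt-Ts2 gave 12.4, 22.6 and 14.5 TPM in Evi1 HSC, 20.6, 15.3 and 35.1 TPM in WT HSC and 23.7, 37.2 and 31.2 TPM in WT KL. The log2 fold changes in WT HSC over WT KL were -1.47 for mt-Tk, -1.02 for mt-Tg and -0.91 for mt-Ts2, with adjusted p of 0.0128, 0.0281 and 0.0485. mt-Tg was the lowest-expressed of the 3. Its groups did not overlap over the 7 libraries, but they did as labelled. The cysteine and leucine tRNA genes mt-Tc and mt-Tl2, both printed above, passed in WT HSC over WT KL and not in Evi1 HSC over WT KL. mt-Tc measured 23.3, 31.2 and 31.7 TPM in Evi1 HSC, 15.4, 17.8 and 30.4 TPM in WT HSC and 17.2, 39.9 and 28.5 TPM in WT KL. mt-Tl2 had 16.7, 13.6 and 15.8 TPM in Evi1 HSC, 7.601, 13.2 and 20.7 TPM in WT HSC and 15.8, 19.4 and 23.7 TPM in WT KL. Their log2 fold changes were -0.98 (adjusted p = 0.0146) and -1.02 (adjusted p = 0.02198) in WT HSC over WT KL, and -0.24 (adjusted p = 0.383) and -0.46 (adjusted p = 0.1601) in Evi1 HSC over WT KL. mt-Td (aspartate, chrM:6942-7011) passed in Evi1 HSC over WT KL, at -1.06 (adjusted p = 0.0147), and stood at -0.74 (adjusted p = 0.07904) in WT HSC over WT KL. mt-Td had 2.36, 1.75 and 1.21 TPM in Evi1 HSC, 3.08, 1.85 and 5.73 TPM in WT HSC and 4.16, 4.95 and 4.46 TPM in WT KL.

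The 7 tRNA genes that passed in no comparison were mt-Tw (tryptophan), mt-Ta (alanine), mt-Tn (asparagine), mt-Ty (tyrosine), mt-Tr (arginine), mt-Th (histidine) and mt-Te (glutamate). mt-Tw stood at 6.89, 7.198 and 0 TPM in Evi1 HSC, 2.19, 2.57 and 18.4 TPM in WT HSC and 0, 14.6 and 17.2 TPM in WT KL. mt-Ta gave 0.505, 9.21 and 7.74 TPM in Evi1 HSC, 0.447, 7.18 and 11.1 TPM in WT HSC and 3.59, 9.36 and 16.7 TPM in WT KL. mt-Tr measured 0.384, 1.35 and 0.7201 TPM in Evi1 HSC, 1.25, 0 and 3.03 TPM in WT HSC and 1.94, 8.54 and 2.01 TPM in WT KL. These 3 varied widely within groups, each with at least 1 library under 1 TPM, and had the largest SEs, 0.95, 1.10 and 0.62 on the log2 scale in WT HSC over WT KL. mt-Tn had 5.64, 12.3 and 14.4 TPM in Evi1 HSC, 4.78, 6.68 and 11.9 TPM in WT HSC and 5.96, 11.1 and 13.2 TPM in WT KL. mt-Ty had 22.5, 29.8 and 19.4 TPM in Evi1 HSC, 17.03, 32.7 and 41.6 TPM in WT HSC and 21.1, 44.2 and 40.3 TPM in WT KL. mt-Th stood at 11.1, 24.6 and 11.4 TPM in Evi1 HSC, 17.6, 10.1 and 26.6 TPM in WT HSC and 12.1, 19.97 and 20.9 TPM in WT KL. The Evi1 HSC libraries overlapped WT KL replicates 2 and 3 in mt-Tn and mt-Th. mt-Te gave 50.5, 29.1 and 18.5 TPM in Evi1 HSC, 30.6, 30.6 and 49.99 TPM in WT HSC and 45.7, 62.1 and 61.1 TPM in WT KL. All 7 had negative log2 fold changes over 7 libraries in both comparisons with WT KL, the highest adjusted p being 0.621 for mt-Tn in Evi1 HSC over WT KL.

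Between Evi1 HSC and WT HSC, none of the 37 genes was called. In limma's fit over the 7 libraries, 0.206% of the 19461 genes tested were called (adjusted p under 0.05), and 3 members had an unadjusted p under 0.05, mt-Tc, mt-Tg and mt-Tt. mt-Tc stood at 0.75 (SE 0.21, adjusted p = 0.377), mt-Tt at 0.68 (SE 0.20, adjusted p = 0.4297) and mt-Tg at -0.81 (SE 0.26, adjusted p = 0.459). The 13 protein genes all had negative log2 fold changes, from -0.29 to -0.06, with a median of -0.18. The members' median was -0.14, against 0.00053 over all genes tested. Evi1 HSC replicate 3 was the lowest of the 9 libraries in all 13 protein genes and in both rRNA genes, and without it the members' median was 0.07. Every Evi1 HSC library lay below both WT HSC libraries in 5 genes, mt-Nd4, mt-Nd5, mt-Co3, mt-Ts1 and mt-Tg, where 12.3% of all genes did, and above them in 3 genes, mt-Tc, mt-Tl2 and mt-Tt, where 11.8% did. Over the 9 libraries as labelled, 0.00514% of genes were called, no member was, none had an unadjusted p under 0.05, and the lowest adjusted p among members was 0.791. Values that miss the threshold do not show that the groups were alike.

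Between WT HSC and WT KL over the 7 libraries, 16 of the 37 genes were lower in WT HSC and none was higher, where 10.8% of all genes tested were called lower. The 16 were 4 of 13 protein genes (mt-Nd1, mt-Nd2, mt-Nd4 and mt-Nd5, all of complex I), 1 of 2 rRNA genes (mt-Rnr1) and 11 of 22 tRNA genes. All 37 log2 fold changes were negative, with a median of -0.98, against 0.26 over all genes tested. The complex I genes had a median of -0.68 and the other protein genes -0.39, while tRNA genes had -1.52 on the plus strand and -0.98 on the minus strand. In 36 genes, all but mt-Ts1, both WT HSC libraries lay below both WT KL libraries, where 25.2% of all genes did. Of all genes, 5203 were called higher and 2104 lower, against 2999 and 3155 after quantile normalization. That scaling moved the median of all genes by -0.36, and the members' median, taken relative to all genes, was -1.23 as deposited and -0.84 under it, with 17 members lower. That method sets mt-Rnr2, which had the same rank in all 7 libraries, equal between groups, and mt-Rnr1 missed the threshold under it. The count of 16 was 8 with no filter on low values, 5 without WT KL replicate 2, 9 without WT KL replicate 3, 10 without WT HSC replicate 2 and 26 without Evi1 HSC replicate 3, which shares in the estimate of the spread. mt-Tl1, mt-Nd1, mt-Tm, mt-Nd2 and mt-Tt passed in all 7 fits that left out 1 library. With 2 libraries a group, leaving one out assumes that the lone library varies like the other groups. Over the 9 libraries as labelled, 0.00514% of genes were called, no member was, none had an unadjusted p under 0.05, and the members' median was -0.25. No direction of change between WT HSC and WT KL passes the test with the 2 libraries kept under their labels.

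**Figure D4:**
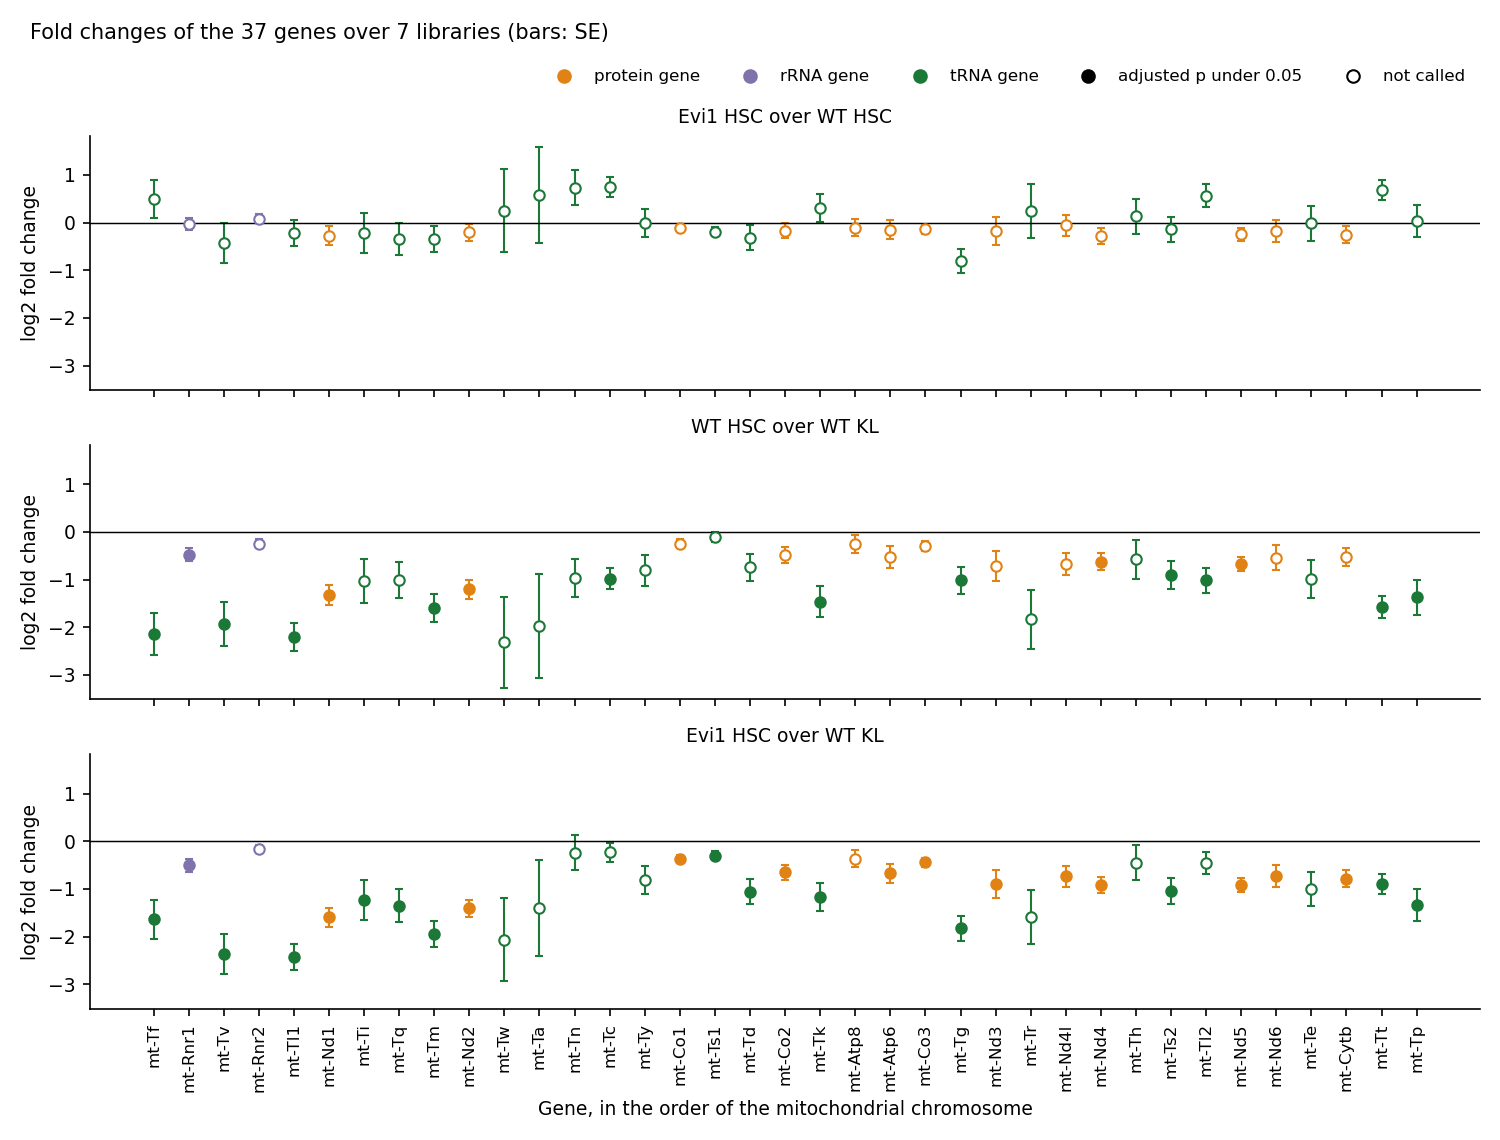
Log2 fold changes over 7 libraries of the 37 genes in chromosome order, with SE bars, for Evi1 HSC over WT HSC, WT HSC over WT KL and Evi1 HSC over WT KL, coloured by class and filled where the adjusted p was under 0.05. None is filled in the first panel, 16 are in the second and 26 in the third, all of these below 0.

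Between Evi1 HSC and WT KL over the 7 libraries, 26 of the 37 genes were lower in Evi1 HSC and none was higher, where 14.3% of all genes tested were called lower. They were 12 of 13 protein genes (all but mt-Atp8), mt-Rnr1 of the rRNA genes and 13 of 22 tRNA genes. All 37 log2 fold changes were negative, with a median of -0.92, against 0.28 over all genes tested. The complex I genes all passed, with a median of -0.92, and the other protein genes had a median of -0.55. In 33 genes every Evi1 HSC library lay below both WT KL libraries, where 22.9% of all genes did. mt-Rnr2, mt-Tn, mt-Tc and mt-Th overlapped. Of all genes, 6087 were called higher and 2776 lower, against 3663 and 4014 after quantile normalization. The median of all genes moved by -0.35, and the members' median relative to it was -1.19 as deposited and -0.81 under that scaling, with 22 members lower. The count of 26 was 10 with no filter on low values, 8 without WT KL replicate 2, 11 without WT KL replicate 3 and 25 without Evi1 HSC replicate 3. mt-Tl1, mt-Tv, mt-Tm, mt-Tg, mt-Nd1, mt-Nd2, mt-Nd4 and mt-Nd5 passed in all 7 fits that left out 1 library. Over the 9 libraries as labelled, 0.0103% of genes were called and no member was. There the members' median was -0.66, 14 members had an unadjusted p under 0.05, and the lowest adjusted p was 0.3104. This comparison shares the WT KL libraries with that of WT HSC and WT KL, so the 14 genes called in both are not 2 independent observations.

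Along the chromosome, the 10 genes up to and including mt-Nd2 had a median log2 fold change of -1.26 in WT HSC over WT KL, with 7 called, and the 27 genes after it -0.74, with 9 called. For Evi1 HSC over WT KL the 10 genes had a median of -1.51, with 9 called, and the 27 genes -0.82, with 17 called. The split at mt-Nd2 was chosen after the values were seen, and it was not tested.

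Annotated copies of mitochondrial DNA in the nuclear genome bear on the levels of 7 protein genes. Among the mouse transcripts annotated in GENCODE M21, 10 pseudogenes matched a mitochondrial gene at 95% identity or more over at least 300 bases, and Gm10222, with 294 bases, was added because it lies beside 6 of them. These 7 lie side by side at chr1:24611535-24616197 on the minus strand, 3 others lie on chromosome 2, and Gm4076 lies on chromosome 13. Over their aligned length Gm28661 (a copy of mt-Co2), Gm10925 (mt-Atp6), Gm28437 (mt-Co3), Gm10222 (mt-Nd4l) and Gm28439 (part of mt-Nd4) are identical to the mitochondrial gene. Gm29216 (part of mt-Co1) and Gm28438 (mt-Nd3) differ from it at 1 base each. The stretches around these bases are shown because no other base in the aligned length separates the gene from its copy. They are written 5′ to 3′ from the GENCODE M21 transcripts with the differing base in capitals.
mt-Co1: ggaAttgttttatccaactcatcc
Gm29216: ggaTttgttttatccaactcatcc
mt-Nd3: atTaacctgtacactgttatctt
Gm28438: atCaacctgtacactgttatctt
The substitutions are A1066T in mt-Co1 and T3C in mt-Nd3, with the mitochondrial base first and positions counted from 1 at the 5′ end of the mitochondrial gene.

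The TPM of copies that match nearly the whole gene lay close to that of the mitochondrial gene. Gm28661 stood at 0.991 to 1.002 times mt-Co2 over the 9 libraries, Gm10925 at 1.003 to 1.005 times mt-Atp6 and Gm28437 at 1.0005 to 1.0018 times mt-Co3. Gm29216 stood at 0.786 to 1.099 times mt-Co1 and Gm28439 at 0.5196 to 0.6204 times mt-Nd4. Gm29216 had 4419, 4274 and 4884 TPM in Evi1 HSC, 4204, 5536 and 4076 TPM in WT HSC and 4976, 4939 and 4734 TPM in WT KL. Its ratio to mt-Co1 was lower in WT KL replicates 2 and 3 and the library labelled WT HSC replicate 3 than in all others. The part of this in the fold changes of mt-Co1 and in the ratio of mt-Nd1 to mt-Co1 was not tested. The less similar copies were lower. Gm13341 stood at 0.212 to 0.242 times mt-Co2, Gm13340 at 0.0766 to 0.0892 times mt-Co1, and Gm13339 at 0.0192 to 0.0347 times mt-Nd2. The sources used here do not say how reads that match both places were counted, so the levels of mt-Co1, mt-Co2, mt-Co3, mt-Atp6, mt-Nd3, mt-Nd4l and mt-Nd4 and of their copies are uncertain. mt-Nd1, mt-Nd6, mt-Cytb and the rRNA genes had no copy at these limits among the annotated transcripts. mt-Atp8 and the tRNA genes are too short to reach 300 bases, so their levels may be uncertain in the same way. mt-Ts1, mt-Td, mt-Tk, mt-Atp8, mt-Tg and mt-Tr lie between genes copied on chromosome 1. The stretches between those copies were not searched. The 11 copies together held 2.24 to 2.71% of the listed TPM in Evi1 HSC, 2.72 and 2.79% in WT HSC replicates 1 and 2 and 3.296 and 3.36% in WT KL replicates 2 and 3. Added to the mitochondrial genes, they gave 13.8 to 17.3% in Evi1 HSC, 16.4 and 16.8% in WT HSC replicates 1 and 2 and 21.2 and 21.4% in WT KL replicates 2 and 3.

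**Figure D5:**
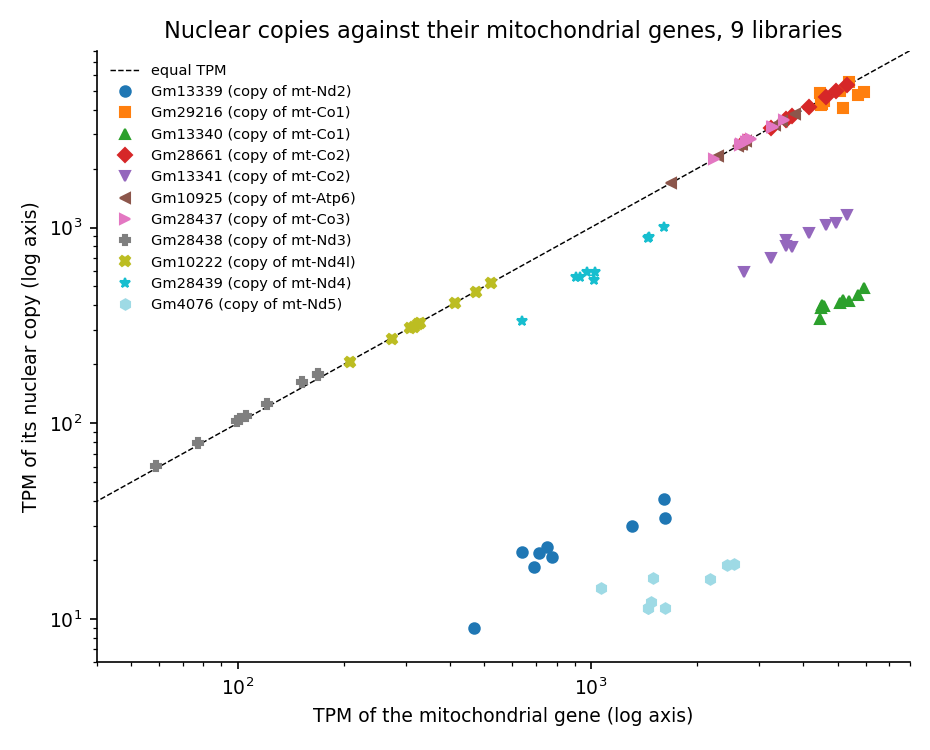
TPM of each of the 11 nuclear copies against that of its mitochondrial gene in the 9 libraries, on log axes, with the line of equal TPM. The 5 copies that match over nearly the whole gene (Gm28661, Gm10925, Gm28437, Gm28438 and Gm10222) lie on that line, with ratios of 0.987 to 1.06.

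Of the nuclear genes that act on mitochondrial DNA and RNA, 2 lists, chosen with earlier results of these data known, were looked up in the same fits. The list of 26 genes for maintenance and transcription had 1 gene higher and 2 lower in WT HSC than in WT KL over 7 libraries, with a median log2 fold change of -0.15, against 0.26 over all genes tested, of which 26.7% were called higher and 10.8% lower. The same list had in Evi1 HSC over WT KL 3 genes higher and 3 lower, with a median of -0.09, against 0.28 over all genes, of which 31.3% were called higher and 14.3% lower. Set against the same shares of all genes, the list of 40 genes for processing, modification and decay had 1 gene higher and 16 lower in WT HSC than in WT KL, with a median of -0.53, and 2 genes higher and 20 lower in Evi1 HSC than in WT KL, with a median of -0.52. Over the 9 libraries as labelled no gene of either list was called in any comparison. The difference between the lists was not tested.

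Among the maintenance genes, Tfam packages mitochondrial DNA and activates its transcription. Tfam measured 15.03, 12.4 and 11.9 TPM in Evi1 HSC, 15.98, 12.99 and 17.4 TPM in WT HSC and 14.2, 20.2 and 20.1 TPM in WT KL. It was lower in Evi1 HSC than in WT KL over 7 libraries, at -0.59 on the log2 scale (SE 0.16, adjusted p = 0.02398). Lonp1 encodes a protease of the mitochondrial matrix. Lonp1 had 38.1, 38.8 and 40.3 TPM in Evi1 HSC, 43.4, 37.96 and 65.2 TPM in WT HSC and 32.9, 71.5 and 65.5 TPM in WT KL. Its log2 fold change was -0.74 in WT HSC over WT KL (adjusted p = 0.00500) and -0.79 in Evi1 HSC over WT KL (adjusted p = 0.00187). Ppargc1a, a coactivator of mitochondrial biogenesis, was called higher in both stem cell groups than in WT KL over 7 libraries (adjusted p = 0.0349 for WT HSC and 0.00182 for Evi1 HSC) but stayed under 2 TPM in all 9 libraries. It reached 1 TPM in the Evi1 HSC libraries alone and passed the filter only through them. Its calls, counted among the higher genes of the list in both comparisons, are therefore no evidence of a difference. Ppargc1a had 1.497, 1.301 and 1.51 TPM in Evi1 HSC, 0.493, 0.771 and 0 TPM in WT HSC and 0.877, 0 and 0 TPM in WT KL. Of its relatives in the list, Pprc1, a related coactivator, was lower in WT HSC than in WT KL, at -0.69 (adjusted p = 0.0452). Polg2, the accessory subunit of the mitochondrial DNA polymerase, and Primpol, a primase and polymerase, were higher in Evi1 HSC than in WT KL, at 0.65 (adjusted p = 0.0238) and 0.57 (adjusted p = 0.03702).

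Among the RNA genes, Nsun2, a methyltransferase of RNA cytosines, had the lowest adjusted p. Nsun2 stood at 89.2, 85.9 and 87.5 TPM in Evi1 HSC, 126, 104 and 239 TPM in WT HSC and 106, 256 and 237 TPM in WT KL. Pus1 makes pseudouridine in tRNAs. Pus1 gave 21.3, 20.8 and 22.4 TPM in Evi1 HSC, 24.7, 21.7 and 49.5 TPM in WT HSC and 22.1, 54.4 and 48.02 TPM in WT KL. In both genes WT KL replicates 2 and 3 lay far above the 5 stem cell libraries of the 7. Nsun2 stood at -1.10 (adjusted p = 0.00101) in WT HSC over WT KL and at -1.48 (adjusted p = 0.000134) in Evi1 HSC over WT KL, and Pus1 at -1.11 (adjusted p = 0.00154) and -1.21 (adjusted p = 0.000493). Trnt1 adds the common 3′ end to tRNAs, and Lrpprc stabilises mitochondrial mRNAs. Trnt1 measured 15.9, 21.3 and 9.21 TPM in Evi1 HSC, 27.02, 16.5 and 43.6 TPM in WT HSC and 18.8, 46.3 and 50.96 TPM in WT KL. Lrpprc had 20.8, 32.8 and 20.4 TPM in Evi1 HSC, 43.4, 19.5 and 66.6 TPM in WT HSC and 36.2, 76.4 and 63.4 TPM in WT KL. In Evi1 HSC over WT KL, Trnt1 stood at -1.66 (adjusted p = 0.00810) and Lrpprc at -1.49 (adjusted p = 0.0130). Lrpprc stood at -1.22 (adjusted p = 0.0445) in WT HSC over WT KL. Tbrg4, which acts on the stability of mitochondrial mRNAs, and Rpusd3, a member of the pseudouridine synthase family, were lower in WT HSC than in WT KL, at -1.17 (adjusted p = 0.00906) and -0.998 (adjusted p = 0.0364). Mrm3, an rRNA methyltransferase, was lower in Evi1 HSC than in WT KL, at -1.33 (adjusted p = 0.00763).

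Between Evi1 HSC and WT HSC over 7 libraries no gene of either list was called. The lowest p in the maintenance list belonged to Ppargc1a, at 0.58 (adjusted p = 0.469), Tfb2m, a transcription factor of mitochondrial DNA, at -0.31 (adjusted p = 0.673), and Twnk, its helicase, at 0.35 (adjusted p = 0.7296). In the RNA list the lowest p belonged to Nsun2, at -0.39 (adjusted p = 0.4201), Mtpap, the mitochondrial poly(A) polymerase, at 0.58 (adjusted p = 0.524), and Rexo2, an exonuclease of short RNAs, at -0.28 (adjusted p = 0.6004).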

How the data were processed

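Expression was measured by RNA sequencing in 9 libraries. The deposited values are TPM per gene, per the file headers, in a table per library, and the submitters' processing notes list HISAT2, StringTie and mm10. The sources used here give no roles or versions for these tools, no strand setting and no rule for reads with several matches. The value column of WT HSC replicate 2 is headed C_H3, and the file was assigned by its sample record. The depth is unknown, since TPM keeps none, so no count model was used and no counting interval could be given. TPM depends on gene length, and values of tRNA genes, at 59 to 75 bases, are sensitive to how length is corrected.

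Differences were tested with limma 3.58.1 in R 4.3.3 (lmFit and eBayes with trend) on log2(TPM + 1) for the 19461 genes that reached 1 TPM in 3 libraries or more of the 9, in 1 fit of the 3 groups, with Benjamini-Hochberg adjustment and a threshold of 0.05. The same fit was made over 7 libraries, without WT HSC replicate 3 and WT KL replicate 1. These 2 were left out for their marker genes, and their labels were not changed. A further marker of the stem cell gate is not reported here. Sums, shares and ratios over members were not tested. Every member is named, and of each pathway list, per comparison over 7 libraries, the 5 genes with the largest absolute log2 fold change among those called, or the 3 with the smallest p where none was. Earlier results of these data were known when this set of genes and the pathway lists were chosen. Within the set, the symbol alone chose the members. Nuclear copies were searched with BLAST+ 2.17.0 among the GENCODE M21 transcripts of GRCm38, in place of a nuclear genome sequence, which was not used here, at 95% identity over 300 bases. The fit was tested on simulated data first. Alternatives were a pseudocount of 0.1 TPM, no filter, a filter at 5 TPM, scaling to nuclear genes, quantile normalization, a replicate block, the compared groups alone and leaving out each library. Python 3.11.15 was used for the tables.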

Additional observations from a re-analysis of the deposited data

How the results depend on the processing

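The fits over 7 libraries were planned with earlier results known, and further changes made to them were chosen after seeing the data. Over the 9 libraries as labelled, no member was called in any comparison under any alternative other than the 7 libraries, where 16 were called in WT HSC over WT KL and 26 in Evi1 HSC over WT KL. Of all genes, 1 was called in Evi1 HSC over WT HSC, against 0 with a pseudocount of 0.1 TPM, 3 with no filter, 1 to 3 when 1 library was left out and 40 over 7 libraries. In WT HSC over WT KL 1 was called, against 2 with no filter, 1 to 4 when 1 library was left out and 7307 over 7 libraries. In Evi1 HSC over WT KL 2 were called, against 1 with a pseudocount of 0.1 TPM, 6 with no filter, 6 with quantile normalization, 2 to 96 when 1 library was left out (96 without WT KL replicate 1) and 8863 over 7 libraries. With the change to 7 libraries, 2 genes reversed in WT HSC over WT KL, mt-Tm at -1.60 against 0.31 over 9 libraries and mt-Tg at -1.02 against 0.01. Their values in the library labelled WT KL replicate 1 were 2.31 and 1.86 TPM.

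Over 7 libraries the count in Evi1 HSC over WT HSC was 40 genes, against 73 with no filter, 6 with the compared groups alone and 5 to 27 when 1 library was left out. Leaving out 1 library gave 4291 to 7324 genes and 5 to 26 members in WT HSC over WT KL, and 5641 to 8703 genes and 8 to 26 members in Evi1 HSC over WT KL. With no filter 8 and 10 members were called in these 2 comparisons. Of 1548 other member results over 7 libraries, 1365 kept their direction or stayed below the threshold, 127 lost their call, 56 gained one and none reversed. The cause of these changes was not tested.

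Replicate numbers are shared between groups. The deviations of same-numbered libraries correlated at -0.64 to 0.70 over 9 libraries, and 2 of the 9 libraries correlated best with their own number. Both extremes were between WT HSC and WT KL, whose deviations each include 1 library against its label. The check over 9 libraries therefore cannot decide whether the numbers pair the samples. Over the 7 libraries the same-numbered pairs that remained correlated at -0.062 to -0.0066, so no shared deviation was seen there. With 2 libraries left in each WT group, their deviations are equal and opposite, which limits that check. A fit with the replicate block over 7 libraries called 0, 4947 and 7526 genes and 0, 24 and 26 members in Evi1 HSC over WT HSC, WT HSC over WT KL and Evi1 HSC over WT KL, and over 9 libraries 1, 1 and 2 genes and no member.

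The difference in mitochondrial share, Evi1 HSC minus WT HSC, was -1.62 percentage points over 9 libraries and -2.34 to -0.42 when 1 library was left out. Evi1 HSC minus WT KL was -3.22, and -4.55 to -2.32 when 1 was left out. WT HSC minus WT KL was -1.60, against -4.14 over 7 libraries and -2.93 to -0.88 when 1 was left out. The depth of the libraries is unknown, and mt-Tr, mt-Ta and mt-Tw, each under 1 TPM in at least 1 library, had the widest errors.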
